A study of Homo sapiens with 8 samples.

Results

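The genes described are 10 neighbours of MYC on the long arm of human chromosome 8, in band 8q24. They were taken from the deposited table by symbol, with MYC itself left out, and are 10 of its 52576 genes. Each symbol stood on 1 row, and all 10 were among the 13979 genes whose mean over the 8 libraries reached 1 RPKM (reads scaled to gene model length and library depth) and that entered the tests. RNA was sequenced from NCI-H2009, a lung adenocarcinoma line of human origin and an established cell line, after poly(A) selection. All 4 groups carried dCas9-KRAB, a non-cutting Cas9 joined to the repressor domain KRAB. They differed in what was added afterwards. A pair of groups received e3 guide 1 or e3 guide 2, which direct the repressor to the same enhancer, called e3. The third group received a guide that matches no human sequence (the non-targeting guide), and the fourth received no guide. Each group had 2 libraries, 8 in all. The labels do not say that these came from separate cultures, so p-values measure a spread that may be technical.

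An enhancer is a stretch of DNA that raises transcription of a gene that can lie far away, often past other genes. KRAB brings in proteins that compact chromatin, and a repressed enhancer therefore lowers the genes that depend on it. MYC, a transcription factor of cell growth, lies in a gene-poor stretch of 8q24 that holds many enhancers and is gained or amplified in many carcinomas. The enhancer e3 belongs to a cluster downstream of MYC, on the telomere side, that is amplified in some lung adenocarcinomas. Genes on both sides of MYC can be carried along when a wider part of 8q24 is gained, and copy number is not among the values used here. The levels of the neighbours show whether the repression at e3 went along with changes beyond MYC. The side of MYC named for e3 is background. Its position is not given in the sources used here, and no distances to it are stated.

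In the order of the RefSeq table for assembly GRCh38.p14, used for order alone, 5 of the neighbours lie on the centromere side of MYC and 5 on the telomere side. On the centromere side these are RNF139, MTSS1, NSMCE2, TRIB1 and FAM84B, with 1 protein-coding gene between FAM84B and MYC. On the telomere side the order is PVT1, FAM49B, ASAP1, EFR3A and KCNQ3, with 7 protein-coding genes between MYC and KCNQ3. PVT1 is a long non-coding RNA gene, and the other 9 encode proteins. FAM84B and FAM49B stand in that table under the newer symbols LRATD2 and CYRIB.

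Depth inferred from the steps between low RPKM values was 3875080 to 5754470 reads per library, and 18240 to 19508 genes were above 0. The libraries without a guide stood apart from the other 6 on the first principal component of all tested genes (38.9% of the variance, at 36.9 and 38.4 against -18.5 to -5.74). MYC, for which the enhancer is studied, had 42.4 and 43.4 RPKM with guide 1, 36.3 and 36.2 RPKM with guide 2, 88.9 and 90.1 RPKM with the non-targeting guide, and 74.6 and 72.7 RPKM without a guide. The labelled epithelial origin was met by its markers, since EPCAM, KRT8, KRT18, KRT19, KRT7 and CDH1 stood between 173.3 and 1364 RPKM. Their sum was 3037 to 3134 RPKM with the e3 guides, 2654 to 2805 RPKM with the non-targeting guide and 3336 to 3454 RPKM without a guide. Of these 6 genes 3 were higher and none lower with the e3 guides than with the non-targeting guide, beside 3.30% and 3.54% of all tested genes (limma). Against no guide 1 was higher and 2 were lower with the e3 guides, beside 8.68% and 8.03%. With the non-targeting guide 4 were lower and none higher than in cells given none, beside 5.81% and 6.55%. Among markers of other cell types, PTPRC, CD3E, VWF, CDH5, DCN and PDGFRB did not exceed 0.0768 RPKM in any library, and COL1A2 did not exceed 0.596. CD68 and COL1A1 were present. The leukocyte list, in which CD68 held nearly all of the level, summed to 28.4 to 31.8 RPKM with the e3 guides, 21.6 to 23.7 with the non-targeting guide and 12.3 to 13.7 without a guide. The fibroblast list summed to 6.15 to 7.18 RPKM with the e3 guides, 5.06 to 5.76 with the non-targeting guide and 3.33 to 4.55 without a guide. The part of these 3 lists in the results was not tested. In bulk RNA, fewer cells of a type and less RNA per cell cannot be told apart.

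MYC fell by 1.02 on the log2 scale against all controls (limma adjusted p = 0.00215). In the comparison of the 4 e3 libraries with all 4 control libraries, 1 of the 10 rose, KCNQ3, none fell, and 9 did not pass (limma, adjusted p under 0.05 after Benjamini-Hochberg adjustment over all tested genes). An unadjusted p under 0.05 was reached by 3 of the 10, beside 3102 of the 13979 tested genes (limma). The call of KCNQ3 was lost with an estimated correlation within groups (adjusted p = 0.0528 with an estimated correlation) and with group means as samples (adjusted p = 0.407). Over all tested genes 5.20% were called in the main comparison, 727 in all, 2.63% higher and 2.58% lower. These became 256 calls with the estimated correlation and 1 with group means as samples. Genes outside the 10 were not followed singly under these settings, which limits their calls against all controls given below. The 4 e3 libraries lay wholly to one side of the 4 controls for 2 of the 10, KCNQ3 and TRIB1, both above; this was so for 15.1% of all tested genes, 7.58% above and 7.51% below. The neighbours' median log2 change was -0.07, beside -0.02 over all tested genes. With the non-targeting guide alone as control the count was again 1 higher and none lower, with 6.84% of all genes called (3.30% higher and 3.54% lower) and medians of 0.04 for the neighbours and 0.00 for all genes. There 3 of the 10 did not overlap, all above, beside 32.3% of all genes (16.0% above and 16.3% below). Against no guide alone 2 were higher and 1 was lower, with 16.7% of all genes called (8.68% higher and 8.03% lower) and medians of -0.11 and -0.03; 6 of the 10 did not overlap, 3 above and 3 below, beside 41.0% of all genes (18.4% above and 22.6% below). Between the controls 1 of the 10 fell with the non-targeting guide, with 12.4% of all genes called (6.55% higher and 5.81% lower), and 5 did not overlap, 2 above and 3 below, beside 56.7% of all genes (27.2% above and 29.5% below). With only 10 genes, counts of 1, 1, 3 and 1 are not read as departing from these shares. The comparisons of the e3 guides share the e3 libraries, and those with all controls and with one control also share controls.

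The 2 e3 guides target the same enhancer, so guide 2 and guide 1 were also set against each other. None of the 10 neighbours was called (limma), and of all tested genes 0.0286% were called, 0.0215% higher and 0.00715% lower with guide 2. An unadjusted p under 0.05 was reached by 1 of the 10, beside 1451 of the 13979 tested genes (limma). Guide 2 lay wholly above guide 1 for 4 of the 10 and below for 1, beside 41.4% of all genes (20.9% above and 20.5% below).

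**Figure D1:**
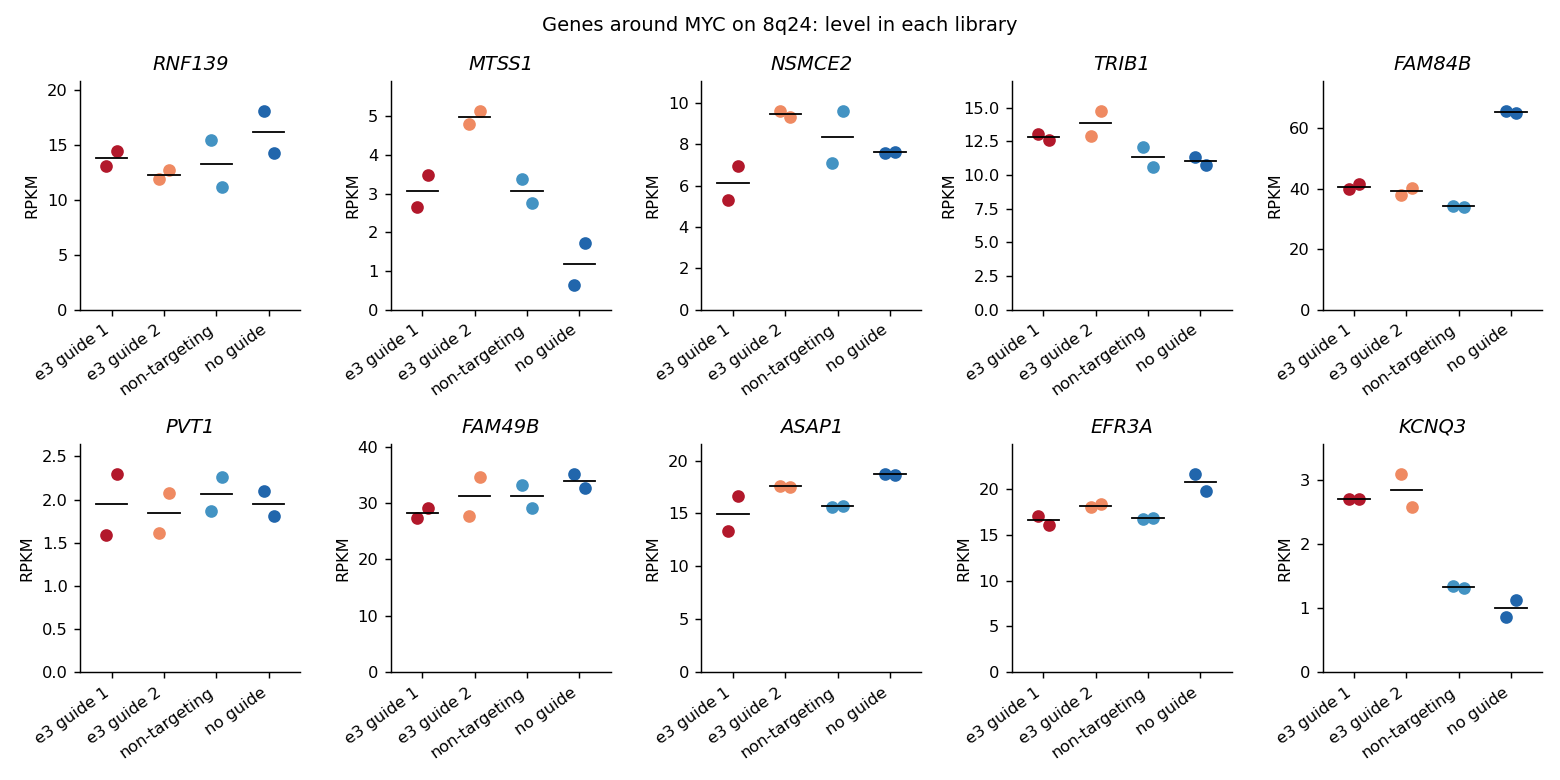
RPKM of the 10 neighbours of MYC in each of the 8 libraries (points; vertical axes in RPKM from 0, a scale for each gene), with the mean of the 2 libraries of a group as a line. KCNQ3 lies between 2.57 and 3.10 RPKM in the e3 libraries and between 0.862 and 1.34 RPKM in the controls, FAM84B is highest without a guide, and PVT1 overlaps between all groups.

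PVT1 (ENSG00000249859.2), the gene next to MYC on the telomere side and the host of several microRNAs, is often gained together with MYC. It had 1.59 and 2.30 RPKM with guide 1, 1.61 and 2.08 RPKM with guide 2, 1.87 and 2.26 RPKM with the non-targeting guide, and 2.10 and 1.81 RPKM without a guide. Every group overlapped every other, and the libraries of guide 1 differed from each other by more than any group means did. Its e3 mean of 1.90 ± 0.35 RPKM compared with 2.06 ± 0.27 RPKM with the non-targeting guide (SD, n = 4 and n = 2). The log2 change was -0.09 with a 95% interval of -0.51 to 0.34 (limma adjusted p = 0.845). MYC differed by -1.16 in the same comparison, with an interval of -1.37 to -0.95. Only 38 to 59 reads lay behind each PVT1 value, a counting error of about 14.3% of a value, while the spread over the 8 libraries was 14.1%. On the log2(RPKM + 1) scale a change of PVT1 as large as that of MYC lies outside its interval. That scale shrinks changes at the low level of PVT1 but hardly at the level of MYC, so these values are not on equal terms. A change of PVT1 within its interval was not detectable at this depth. PVT1 has many transcripts, and the table gives 1 value for the gene.

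KCNQ3 (ENSG00000184156.9), the neighbour farthest from MYC on the telomere side, encodes a subunit of the voltage-gated potassium channel that carries the M current in neurons. It had 2.70 and 2.70 RPKM with guide 1, 3.10 and 2.57 RPKM with guide 2, 1.34 and 1.31 RPKM with the non-targeting guide, and 0.862 and 1.13 RPKM without a guide. All 4 e3 libraries were above all 4 controls, and the pairs of the e3 guides overlapped each other. The e3 mean of 2.77 ± 0.23 RPKM was 2.38 times the control mean of 1.16 ± 0.22 RPKM (SD, n = 4 each). On the log2(RPKM + 1) scale the rise was 0.81 ± 0.14 (SE; limma adjusted p = 0.0149). That scale shrinks the change of a gene at such a low level. The exact two-sided permutation p over the 70 arrangements of the 8 libraries was 0.0286, the smallest they can give. Any gene whose 4 e3 libraries lie wholly to one side of the 4 controls reaches that value. It takes the libraries as exchangeable, although they came as 4 groups of 2, so it adds nothing to the lack of overlap.

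Taken with each control alone, the rise of KCNQ3 was 0.69 ± 0.15 (2.09 times, limma adjusted p = 0.0376) against the non-targeting guide and 0.92 ± 0.17 (2.78 times, limma adjusted p = 0.00903) against no guide. Between the controls KCNQ3 differed by 0.22 ± 0.19, which did not pass (limma adjusted p = 0.503), and guide 2 and guide 1 differed by 0.05 with an interval of -0.39 to 0.49. It stood on 57 to 97 reads in the e3 libraries and 22 to 34 reads in the controls. Leaving out the first library of guide 2, the deepest and the one with the highest KCNQ3, gave an adjusted p of 0.0597 against all controls, and each of the 6 possible omissions ended the call against the non-targeting guide (log2 change 0.65 to 0.72, adjusted p 0.066 to 0.186), as did testing genes without the filter on low values (adjusted p = 0.0608). Without the first no-guide library the comparison with no guide gave 0.82 (adjusted p = 0.0713).

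Of the other channel subunits listed with KCNQ3, 1 of 5 was tested, KCNQ5, which can pair with KCNQ3. KCNQ5 had 1.27 RPKM with guide 1 and 0.999 RPKM with guide 2, against 1.90 RPKM with the non-targeting guide and 2.20 RPKM without a guide (means, n = 2 each). It did not pass in the comparison with the non-targeting guide (log2 change -0.46 ± 0.23, limma adjusted p = 0.287). KCNQ1 and KCNE3 averaged at most 0.0159 RPKM.

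MTSS1 (ENSG00000170873.14) encodes a protein that bends membranes and binds actin at cell edges and junctions. It had 2.64 and 3.48 RPKM with guide 1, 4.80 and 5.14 RPKM with guide 2, 3.38 and 2.76 RPKM with the non-targeting guide, and 0.631 and 1.71 RPKM without a guide. In the order of group means guide 2 came first, the non-targeting guide and guide 1 overlapped in the middle, and no guide came last, apart from the rest. MTSS1 rose with the e3 guides against no guide (4.02 ± 1.16 RPKM, n = 4, against 1.17 ± 0.77 RPKM, n = 2, SD; log2 change 1.22 ± 0.28, limma adjusted p = 0.0221). It did not pass with the non-targeting guide as control, with a log2 change of 0.27 and an interval of -0.25 to 0.80 (limma adjusted p = 0.55). The non-targeting guide and no guide differed by 0.95 ± 0.26, close to the threshold (limma adjusted p = 0.0516). Guide 2 and guide 1 differed by 0.56 with an interval of -0.03 to 1.16 (limma adjusted p = 0.514).

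MTSS1 was the most variable of the 10 genes, with a spread of 48.7% of its mean over the 8 libraries, and it rested on few reads, 9 and 22 without a guide and 35 to 84 elsewhere. Its rise against no guide was lost when genes were tested without the filter on low values (adjusted p = 0.103), and also without the first library of guide 2 (log2 change 1.14, adjusted p = 0.0565) and without the first no-guide library (0.85, adjusted p = 0.16). In the GENCODE 29 annotation, which belongs to another build, NDUFB9 overlaps MTSS1 on the opposite strand, and the strand setting of the counting is not given in the sources used here. NDUFB9, a subunit of respiratory complex I, averaged 126.3 RPKM with guide 1 and 107.1 RPKM with guide 2, against 137.7 RPKM with the non-targeting guide and 110.4 RPKM without a guide. Its group order was not that of MTSS1, and the part of its reads in MTSS1 was not tested.

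Of the 4 proteins listed with MTSS1 for the same membrane-bending domain, all 4 were tested. In the comparison with all controls BAIAP2L2 fell and 3 did not pass, and in the comparison with the non-targeting guide none passed. BAIAP2L2 had 0.497 RPKM with guide 1 and 0.57 RPKM with guide 2, against 1.40 RPKM with the non-targeting guide and 2.95 RPKM without a guide (log2 change -1.002 ± 0.23 against all controls, limma adjusted p = 0.0396). Its mean over the 8 libraries was 1.35 RPKM, and it reached the minimum of 1 RPKM only through the controls, where it was high. The call therefore depends on the filter and rests on values near the floor. BAIAP2, which links RAC and CDC42 to actin, differed by 0.21 from the non-targeting guide (limma adjusted p = 0.162). MTSS1L, the close relative of MTSS1, averaged 51.9 RPKM with guide 1 and 46.0 RPKM with guide 2, against 45.0 RPKM with the non-targeting guide and 65.2 RPKM without a guide. It fell against no guide with the e3 guides by 0.41 (limma adjusted p = 0.0129) and with the non-targeting guide by 0.52 (limma adjusted p = 0.00249), and the e3 guides differed from the non-targeting guide by 0.11 (limma adjusted p = 0.484).

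FAM84B (ENSG00000168672.3), the nearest of the neighbours on the centromere side, encodes a protein with a domain of the lecithin retinol acyltransferase family whose role is little known. It had 40.0 and 41.4 RPKM with guide 1, 38.0 and 40.4 RPKM with guide 2, 34.4 and 34.0 RPKM with the non-targeting guide, and 65.8 and 65.0 RPKM without a guide. The libraries without a guide were far above the other 6, and the e3 libraries lay above those of the non-targeting guide. FAM84B fell with the e3 guides against no guide, with means of 40.0 ± 1.44 RPKM (n = 4) and 65.4 ± 0.58 RPKM (n = 2, SD) (log2 change -0.70 ± 0.06, limma adjusted p = 0.000276). The non-targeting guide differed from no guide in the same direction, by -0.92 ± 0.06 (limma adjusted p = 9.36e-05). Set beside the non-targeting guide the e3 libraries differed by 0.22 ± 0.06 in the opposite direction, which did not pass (limma adjusted p = 0.0832). With 868 to 1669 reads behind each value, counting error was about 3.01%. Against all controls together the log2 change was -0.24 with an interval of -0.72 to 0.24, because the controls themselves spread from 34.0 to 65.8 RPKM. The paralog FAM84A was listed at 0 in every library.

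**Figure D2:**
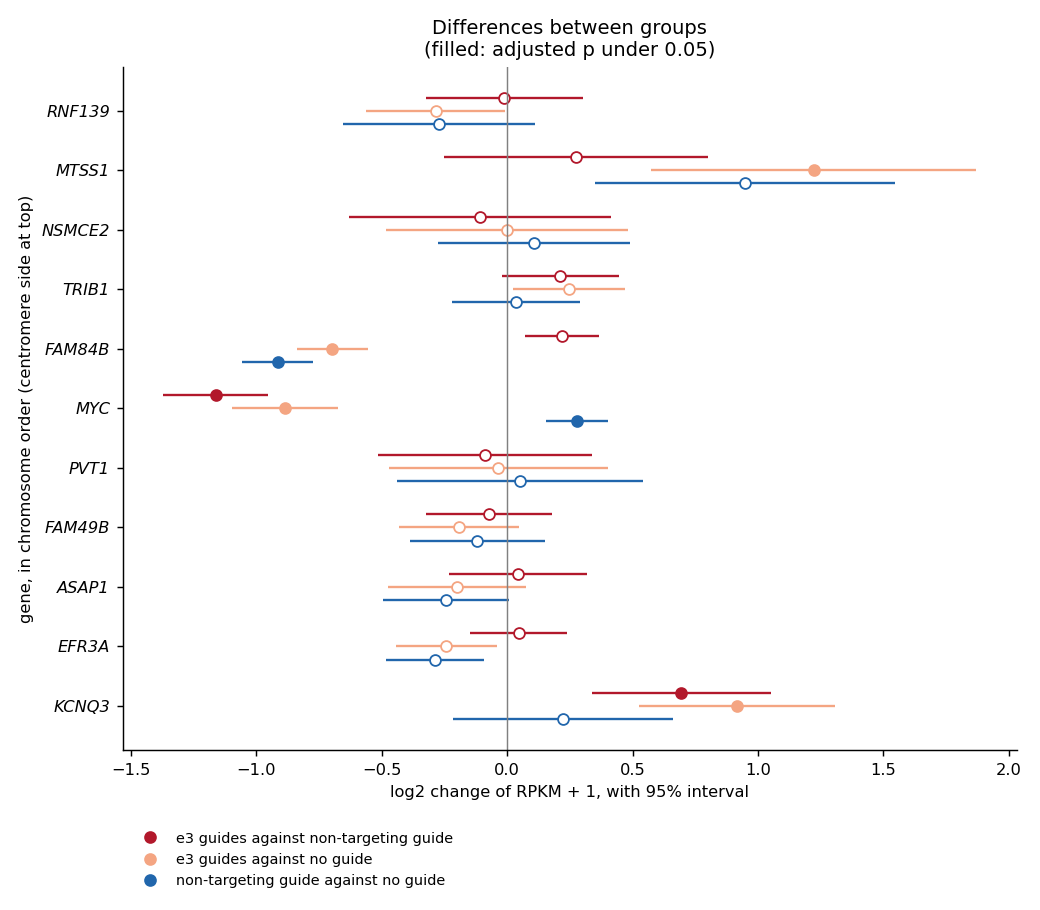
Log2 change of RPKM + 1 (horizontal axis, with 95% intervals from limma) of the 10 neighbours and MYC, in chromosome order down the page, for e3 guides against the non-targeting guide, e3 guides against no guide, and the non-targeting guide against no guide (filled where the adjusted p was under 0.05). MYC and KCNQ3 are filled against both controls, at -1.16 and 0.69 against the non-targeting guide, while FAM84B and MTSS1 are filled only in comparisons with no guide. MYC is also filled between the controls, at 0.28.

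TRIB1 (ENSG00000173334.3) encodes a pseudokinase that brings the ubiquitin ligase COP1 to C/EBP transcription factors, and it is a known gene of lipid metabolism in liver. It had 13.0 and 12.6 RPKM with guide 1, 12.9 and 14.8 RPKM with guide 2, 12.1 and 10.6 RPKM with the non-targeting guide, and 11.3 and 10.8 RPKM without a guide. All 4 e3 libraries were above all 4 controls by a small margin, and within the e3 guides and within the controls the pairs overlapped. The e3 mean of 13.3 ± 0.98 RPKM compared with a control mean of 11.2 ± 0.68 RPKM (SD, n = 4 each). The log2 change of 0.23 ± 0.08 did not pass the adjustment (limma unadjusted p = 0.0205, adjusted p = 0.143). The exact two-sided permutation p of 0.0286 only restates the lack of overlap and takes the libraries of a group as exchangeable with the rest. The change was 0.21 against the non-targeting guide and 0.25 against no guide.

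Of 6 genes listed with TRIB1, 4 were tested and none passed against all controls or against the non-targeting guide. TRIB3, a pseudokinase of the stress response, had 6.36 RPKM with guide 1 and 7.14 RPKM with guide 2, against 9.43 RPKM with the non-targeting guide and 6.87 RPKM without a guide (log2 change -0.43 against the non-targeting guide, limma adjusted p = 0.066). CEBPB, a C/EBP factor, was higher against no guide both with the e3 guides (0.66, limma adjusted p = 0.0309) and with the non-targeting guide (0.89, limma adjusted p = 0.0163), and the e3 guides differed from the non-targeting guide by -0.23 (limma adjusted p = 0.44).

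NSMCE2 (ENSG00000156831.3) encodes the SUMO ligase of the SMC5/6 complex, which works in DNA repair. It had 5.30 and 6.95 RPKM with guide 1, 9.61 and 9.31 RPKM with guide 2, 7.11 and 9.60 RPKM with the non-targeting guide, and 7.58 and 7.64 RPKM without a guide. The guides lay on opposite sides of the cells without a guide, guide 2 above and guide 1 below, and the non-targeting pair was spread widely and overlapped guide 2 and the cells without a guide. Guide 2 differed from guide 1 by 0.56 ± 0.17, the largest such difference of the 10 genes relative to its error, and it did not pass the adjustment over all genes (limma unadjusted p = 0.00952, adjusted p = 0.317). The e3 libraries differed from the non-targeting guide by -0.11 with an interval of -0.63 to 0.41. Reads behind each value were 48 to 115. KIAA0196, which overlaps NSMCE2 on the opposite strand in GENCODE 29, averaged 17.6 RPKM with guide 1 and 20.4 RPKM with guide 2, against 20.2 RPKM with the non-targeting guide and 21.2 RPKM without a guide. It too was lower with guide 1 than with guide 2, and its part in NSMCE2 was not tested.

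All 6 other genes of the SMC5/6 list were tested. NSMCE1, a RING-domain subunit of the same complex, fell against all controls (11.7 RPKM with guide 1 and 12.1 RPKM with guide 2, against 15.2 RPKM with the non-targeting guide and 15.6 RPKM without a guide; log2 change -0.35 ± 0.08, limma adjusted p = 0.0407), and the other 5 did not pass. None passed against the non-targeting guide, where NSMCE1 differed by -0.33 (limma adjusted p = 0.0998) and SMC5, a core ATPase of the complex, by 0.26 (limma adjusted p = 0.30).

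The other 4 neighbours, FAM49B, ASAP1, EFR3A and RNF139, passed in none of the 5 comparisons. FAM49B (ENSG00000153310.12), which binds active RAC1 and restrains lamellipodia, had 27.3 and 29.2 RPKM with guide 1, 27.7 and 34.6 RPKM with guide 2, 33.2 and 29.1 RPKM with the non-targeting guide, and 35.2 and 32.6 RPKM without a guide. Each group overlapped the next in the order of means. Its log2 change was -0.07 against the non-targeting guide, with an interval of -0.32 to 0.18, and -0.19 against no guide, with an interval of -0.43 to 0.05. RAC1 and CYFIP1, the 2 tested of the 4 genes listed with it, differed from the non-targeting guide by 0.11 (limma adjusted p = 0.291) and 0.13 (limma adjusted p = 0.41).

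ASAP1 (ENSG00000153317.9), a GTPase-activating protein for ARF proteins at focal adhesions and invadopodia, had 13.3 and 16.6 RPKM with guide 1, 17.6 and 17.5 RPKM with guide 2, 15.6 and 15.7 RPKM with the non-targeting guide, and 18.8 and 18.7 RPKM without a guide. Cells without a guide were highest, and guide 1 spread across the non-targeting pair. The log2 change was 0.04 against the non-targeting guide (interval -0.23 to 0.32) and -0.20 against no guide (interval -0.47 to 0.08). Of its 5 listed partners and paralogs none passed against the non-targeting guide, where ARF6 differed by -0.11 (limma adjusted p = 0.405) and ASAP3 by 0.25 (limma adjusted p = 0.53). Against no guide ARF6 fell by 0.36 (limma adjusted p = 0.0125).

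EFR3A (ENSG00000132294.8), which anchors the lipid kinase PI4KA at the plasma membrane, had 17.0 and 16.1 RPKM with guide 1, 18.0 and 18.4 RPKM with guide 2, 16.7 and 16.8 RPKM with the non-targeting guide, and 21.7 and 19.8 RPKM without a guide. It was highest without a guide, in both libraries. The log2 change was 0.05 against the non-targeting guide (interval -0.15 to 0.24), -0.24 against no guide (interval -0.44 to -0.04, limma adjusted p = 0.103), and -0.29 between the non-targeting guide and no guide (limma adjusted p = 0.0671). All 7 genes listed with EFR3A were tested and none passed with the e3 guides against either control or both. PI4KA differed from the non-targeting guide by 0.20 (limma adjusted p = 0.197) and EFR3B, the paralog, by -0.28 (limma adjusted p = 0.254). Between the controls PI4KA was lower with the non-targeting guide, at 21.9 RPKM against 27.9 RPKM without a guide (log2 change -0.34, limma adjusted p = 0.0457).

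RNF139 (ENSG00000170881.4), a ubiquitin ligase of the endoplasmic reticulum linked to sterol sensing, had 13.1 and 14.4 RPKM with guide 1, 11.8 and 12.7 RPKM with guide 2, 15.4 and 11.1 RPKM with the non-targeting guide, and 18.1 and 14.2 RPKM without a guide. The controls spread within their own pairs by more than the e3 guides differed from each other. The log2 change was -0.01 against the non-targeting guide (interval -0.32 to 0.30) and -0.28 against no guide (interval -0.56 to -0.01, limma adjusted p = 0.15). Of 6 genes of sterol sensing listed with it, INSIG2, which retains the SREBP machinery in the endoplasmic reticulum, rose against all controls (8.92 RPKM with guide 1 and 9.76 RPKM with guide 2, against 7.31 RPKM with the non-targeting guide and 6.51 RPKM without a guide; log2 change 0.39 ± 0.09, limma adjusted p = 0.041). The other 5 did not pass there. None passed with the non-targeting guide as control, with INSIG2 at 0.32 (limma adjusted p = 0.12).

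Levels per length spanned a wide range among the neighbours. FAM84B averaged 44.9 RPKM over the 8 libraries, above 89.2% of tested genes, followed by FAM49B at 31.1, EFR3A at 18.1, ASAP1 at 16.7, RNF139 at 13.9 and TRIB1 at 12.3 RPKM. NSMCE2 averaged 7.89, MTSS1 3.07, KCNQ3 1.97 and PVT1 1.95 RPKM, and PVT1 was above 13.1% of tested genes. KCNQ3 and MTSS1 varied most over the 8 libraries, by 45.0% and 48.7% of their means (SD), FAM84B by 28.8%, and the other 7 by 10.2% to 19.3%. Counting error at the mean reads over the 8 libraries was about 14.3% for KCNQ3 and 15.2% for MTSS1. It was larger where reads were fewer, as in the libraries without a guide, with 22 and 26 reads for KCNQ3 and 9 and 22 for MTSS1.

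**Figure D3:**
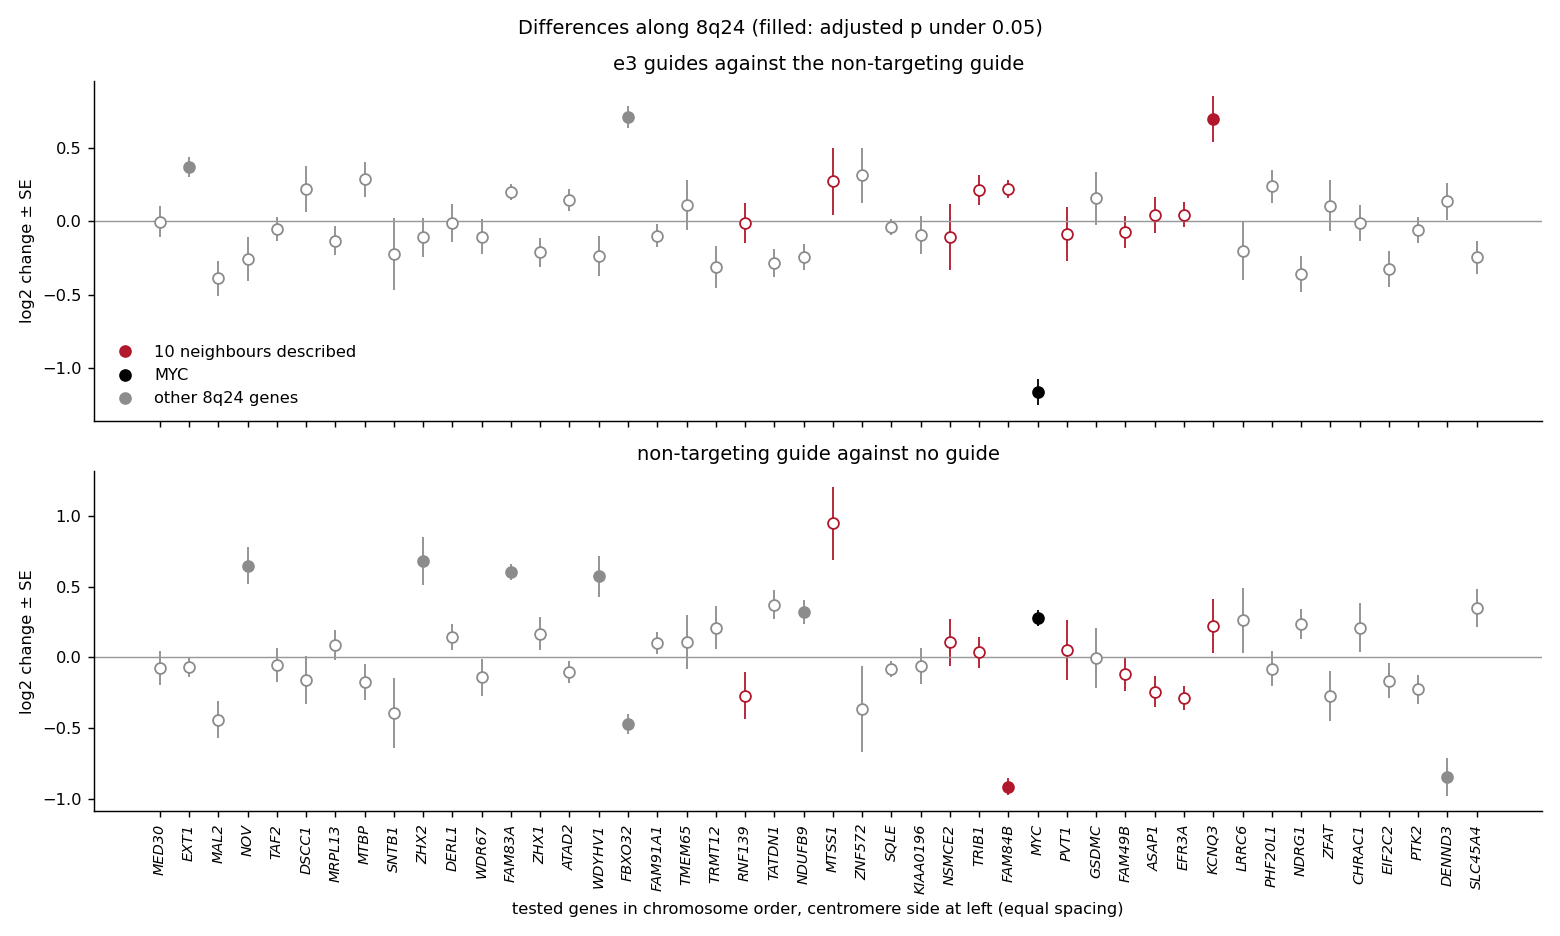
Log2 change of RPKM + 1 with its standard error for all 46 tested genes of the 8q24 lists in chromosome order at equal spacing, for e3 guides against the non-targeting guide (top) and the non-targeting guide against no guide (bottom); filled points had an adjusted p under 0.05. In the top panel MYC at -1.16 is the lowest point, and the filled points besides it are EXT1, FBXO32 and KCNQ3.

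A wider list of 66 symbols along 8q24 was set beside the neighbours. Of these 61 were found and 35 tested. Against all controls 1 was higher, EXT1, and 1 was lower, MAL2, where 5.20% of all tested genes were called. Against the non-targeting guide 2 were higher, EXT1 and FBXO32, none was lower, and 33 did not pass, where 6.84% of all genes were called. The list's median in that comparison was -0.06, beside 0.00 over all genes. All 3 named genes lie on the centromere side, which holds 25 of the 35 tested genes, so their side is not read as a pattern. Each has at least 17 protein-coding genes between it and MYC. None of the 10 tested genes of the list on the telomere side was called in either comparison. With no guide as control 2 of the 35 were higher, EXT1 and FAM83A, and 3 were lower, MAL2, EIF2C2 and DENND3, where 16.7% of all genes were called. EIF2C2 (-0.49, limma adjusted p = 0.0259) and DENND3 (-0.71, limma adjusted p = 0.00491) lie on the telomere side.

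EXT1, a glycosyltransferase of heparan sulfate synthesis, had means of 33.6 RPKM with guide 1 and 34.5 RPKM with guide 2, against 26.1 RPKM with the non-targeting guide and 27.4 RPKM without a guide. It rose by 0.34 ± 0.06 against all controls (limma adjusted p = 0.0175) and by 0.37 ± 0.07 against the non-targeting guide (limma adjusted p = 0.0209). FBXO32, the F-box protein of a ubiquitin ligase known from muscle wasting, had 57.4 RPKM with guide 1 and 63.0 RPKM with guide 2, against 36.4 RPKM with the non-targeting guide and 50.8 RPKM without a guide. It rose by 0.71 ± 0.08 against the non-targeting guide (limma adjusted p = 0.00486), was lower under the non-targeting guide than in cells without one (-0.47, limma adjusted p = 0.00442), and did not pass against all controls (0.48, limma adjusted p = 0.06). MAL2, a protein of apical transport in epithelia, had 48.1 RPKM with guide 1 and 49.7 RPKM with guide 2, against 64.7 RPKM with the non-targeting guide and 87.5 RPKM without a guide. It fell against all controls by 0.61 (limma adjusted p = 0.0357) and did not pass against the non-targeting guide (-0.39, limma adjusted p = 0.0939).

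Between the controls 7 of the 35 genes differed, 5 higher and 2 lower under the non-targeting guide, where 12.4% of all genes were called. Among them FAM83A averaged 66.9 RPKM with the non-targeting guide and 43.7 RPKM without a guide, and DENND3 4.18 RPKM with the non-targeting guide and 8.31 RPKM without a guide. With FAM84B and MYC these are differences at 8q24 between groups that both lacked an e3 guide.

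The genes whose profile over the 8 libraries was closest to each variable neighbour were found by the root mean square difference of log2(RPKM + 1) after each gene's own mean was removed, over 13978 other tested genes. KCNQ3, whose own profile had a root mean square of 0.42, was closest to CDH3 (0.085), which encodes P-cadherin, FLRT2 (0.090), a membrane protein of cell adhesion, and ECE1 (0.095), an endothelin-converting enzyme. CDH3 averaged 213.2 RPKM with the e3 guides, 144.5 RPKM with the non-targeting guide and 121.1 RPKM without a guide. FAM84B (own value 0.35) was closest to ASPH (0.049), SNX18 (0.058) and NQO1 (0.060). NQO1, a quinone reductase, averaged 150.3 RPKM with the e3 guides, 126.6 RPKM with the non-targeting guide and 250.4 RPKM without a guide. MTSS1 (own value 0.58) was closest to CGB (0.18), KIF3C (0.20) and RP11-841O20.2 (0.20). CGB belongs to a family of near-identical copies, so its value is uncertain. NSMCE2 (own value 0.24) was closest to ULK2 (0.10), RP11-366M4.11 (0.11) and CROT (0.12). The other 6 neighbours varied too little for this measure, with own values of 0.13 to 0.19. The points share the same 8 libraries, and the genes named were chosen for this likeness.

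**Figure D4:**
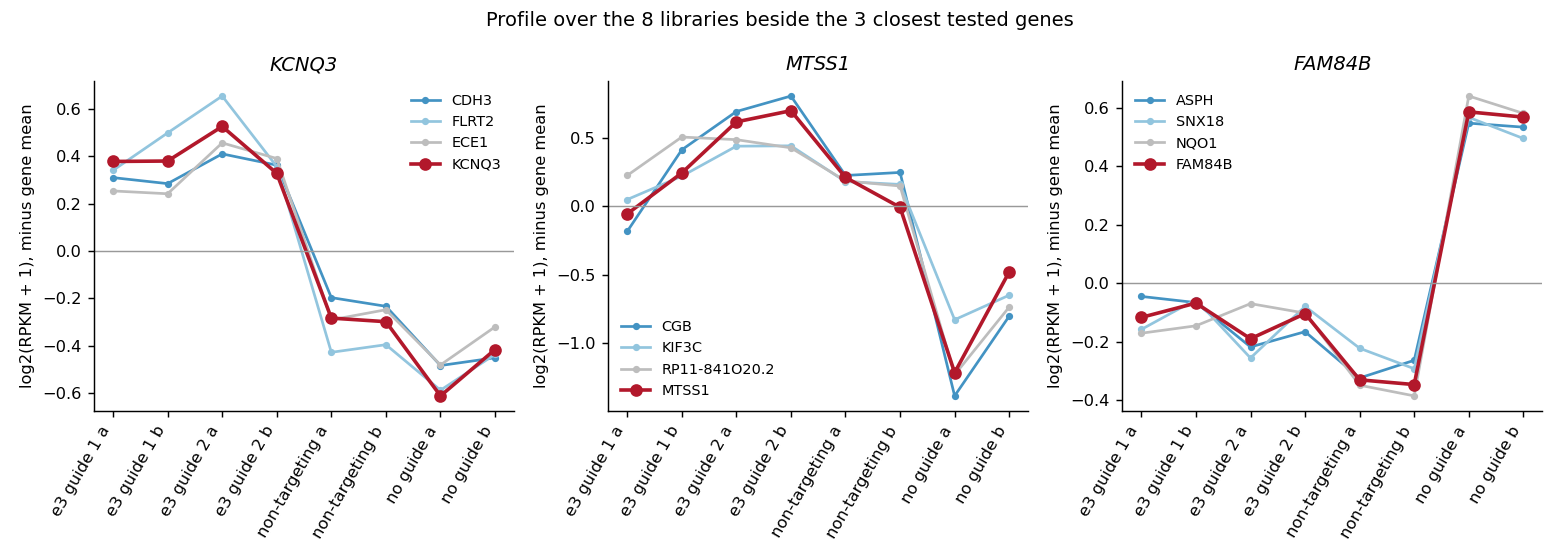
Log2(RPKM + 1) minus the gene's mean in each of the 8 libraries (a and b are the libraries of a group) for KCNQ3, MTSS1 and FAM84B, each with the 3 tested genes of closest profile. KCNQ3 steps down between the e3 libraries and the controls, whereas FAM84B steps up between the 6 libraries with a guide and the libraries without one.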

How the data were processed

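The authors deposited 1 table of RPKM values, a column for each library, with genes given by Ensembl identifier and symbol. Per the submitters' processing notes the build was hg19 and Cufflinks was used, with no role or version stated. The aligner, the counting, the strand setting and the annotation release are not given in the sources used here. Columns were matched to samples by name, and the design text names the column of the non-targeting guide.

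Tests used limma 3.58.1 in R 4.3.3 on log2(RPKM + 1), two-sided with a variance trend, for genes averaging 1 RPKM or more, with Benjamini-Hochberg adjustment over all 13979 of them. Comparisons of the e3 guides with controls used 2 groups and only the libraries concerned. Those between the controls and between the guides used a model with 4 groups. The procedure was tested on simulated data, drawn independently for each library around the gene's mean with the spread within groups and planted changes. The simulation held no differences between the controls or the guides that a comparison pools. It therefore cannot show how the tests behave with such differences. Errors on RPKM are SDs and errors on log2 changes are SEs.

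Whole reads were inferred from the steps between low values (13911 of 13979 tested genes, tolerance 0.03 reads) and served only to judge precision. RPKM keeps no counts, so no count test was run. Counting errors cover counting alone. Over genes with at least 10 reads in each library, the chi-square per degree of freedom between the libraries of a group was 1.91 to 2.09, so no library was a copy of another.

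The neighbours, the lists and the rule for named genes were chosen with earlier results of these data known. The rule named all 10 neighbours and MYC, called genes of the wider 8q24 list against all controls or the non-targeting guide, up to 2 genes per partner list by smallest p against the non-targeting guide, and 3 genes by likeness for profiles of at least 0.2. MTSS1L, FAM83A, EIF2C2 and DENND3 are named beyond it, after their values were seen. The same holds for calls of partners, such as BAIAP2L2 and CEBPB, in comparisons other than that with the non-targeting guide. Order and overlaps come from RefSeq (GRCh38.p14) and GENCODE 29, and no coordinates of another build are given. A few listed genes are not reported here. Alternatives were a pseudocount of 0.1, no filter, a minimum of 5 RPKM, median-ratio scaling, the replicate number as a block, an estimated correlation within groups, group means as samples, and each library left out.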

Additional observations from a re-analysis of the deposited data

How the results depend on the processing

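The count of neighbours called against all controls was 1 and became 0 with a minimum mean of 5 RPKM, which leaves KCNQ3, MTSS1 and PVT1 untested, with an estimated correlation within groups (KCNQ3 adjusted p = 0.0528) and with group means as samples (adjusted p = 0.407); leaving out 1 library gave 0 to 1. Against the non-targeting guide it was 1 and became 0 without a filter (KCNQ3 adjusted p = 0.0608), with the minimum of 5 RPKM and with the replicate block (adjusted p = 0.0656), and leaving out 1 library gave 0 to 0. Against no guide it was 3 and became 1 with the minimum of 5 RPKM and 2 without a filter (MTSS1 adjusted p = 0.103), and leaving out 1 library gave 1 to 3. Between the controls it was 1 and became 2 with median-ratio scaling, where MTSS1 passed (log2 change 0.96, adjusted p = 0.0481), and leaving out 1 library gave 1 to 2. Guide 2 against guide 1 stayed at 0 under every alternative run. Beyond the filters, the causes were not tested.

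When each library was left out in turn, 326 values kept their side of the threshold and their direction, 10 lost and 1 gained the call, and 23 small differences changed sign. Among these, against all controls, ASAP1 ranged from -0.12 to 0.0089 and NSMCE2 from -0.16 to 0.10. With the non-targeting guide as control PVT1 ranged from -0.18 to 0.0045, NSMCE2 from -0.30 to 0.086, FAM49B from -0.16 to 0.021 and RNF139 from -0.23 to 0.20. With no guide as control PVT1 ranged from -0.10 to 0.035 and NSMCE2 from -0.10 to 0.15, and NSMCE2 was 0.024 with median-ratio scaling. Between the controls PVT1 ranged from -0.039 to 0.14, TRIB1 from -0.052 to 0.12 and NSMCE2 from -0.087 to 0.30. Between the guides PVT1 ranged from -0.22 to 0.13, KCNQ3 from -0.051 to 0.15 and FAM49B from -0.024 to 0.29. Libraries of the same number did not deviate together (correlations -0.0223 to 0.0138), so the block is an alternative only. Where a fit left a group with 1 library, it was assumed to vary like the others. The low reads of KCNQ3, MTSS1 and PVT1 limit what these depths can show.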
